A study of Mus musculus with 2 samples.

Results

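Helper and regulatory T cells of the mouse colon are described here in 2 single-cell libraries, 1 of transgenic Alzheimer's disease model mice (AD) and 1 of wild-type mice (WT). Members were chosen by the unique molecular identifiers (UMIs, each standing for 1 captured transcript) that a cell barcode held. A member had at least 200 detected genes, at most 25% mitochondrial UMIs and at least 1 UMI of Cd3d, Cd3e or Cd3g, which encode the signalling chains of the T cell receptor. It also had at least 2 UMIs, in sum, of the 5 helper genes Cd4, Foxp3, Ctla4, Icos and Tnfrsf4. Barcodes with a UMI of the cytotoxic genes Cd8a, Cd8b1, Gzma or Gzmb, of the B cell genes Cd79a or Ms4a1, or of the macrophage genes Lyz2, C1qa or Csf1r were left out, as were those with 0.3% or more of their UMIs from 6 epithelial keratin, adhesion and lectin genes. Ms4a1 was listed at 0 in every barcode of both libraries and so removed nothing. The rule found 144 members among 6241 kept cells, 115 of 4691 in the AD library and 29 of 1550 in the WT library. Just inside the helper threshold, at exactly 2 UMIs, stood 20 AD and 8 WT members, and just outside it, at 1 UMI, stood 37 AD and 11 WT T cells that met every other condition.

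The AD mice are named APP/PS1-21 in the design text, a line that as background carries mutant human APP and presenilin transgenes under a neuronal promoter, and the WT mice carried none. Per the labels' protocols, the colon tissue was cut up and taken apart with trypsin and DNase I ahead of 10x library preparation, and neither age nor sex nor the number of animals is given there. Each genotype is a single library, so the spread among animals is unknown, AD and WT could not be tested against each other, and every difference below is one between these 2 libraries. Ranges in parentheses are exact 95% intervals that cover counting error only. Those of shares are Clopper-Pearson intervals, those of summed counts follow the Poisson distribution, and those of ratios are binomial given the total.

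Helper T cells carry the coreceptor CD4 and direct other immune cells through cytokines. Type 1 helper cells make interferon gamma under the regulator T-bet (Tbx21), type 2 cells make interleukins 4, 5 and 13 under GATA3, and type 17 cells make interleukins 17 and 22 and act on the gut epithelium. Regulatory T cells are set by FOXP3 and restrain the others through CTLA-4, interleukin 10 and competition for interleukin 2. In the colon many regulatory T cells also carry GATA3 and the interleukin 33 receptor ST2 (Il1rl1). ICOS and OX40 (Tnfrsf4) are costimulatory receptors found on activated helper and regulatory cells alike.

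Members held 305771 UMIs in the AD library and 104748 in the WT library. Their median depth was 2404 UMIs per cell in AD and 3149 in WT, so a gene was less likely to be seen in an AD cell, and shares of cells with a UMI are also given after each cell was thinned to 1000 UMIs. The median mitochondrial share was 8.18% in AD and 7.14% in WT members. No member barcode was shared between the libraries, which had 7 barcodes in common in all. Of all barcodes 29.2% in AD and 60.4% in WT were over the mitochondrial limit, yet only 1 barcode in each library met the rest of the rule and was removed by it.

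All 6 pan T markers that were listed with counts (Cd3d, Cd3e, Cd3g, Cd247, Cd5 and Lck) were found in the members of both libraries, with 534 UMIs in AD and 176 in WT. The Cd3 genes belong to the rule, so their presence was fixed by it. Outside the rule, Cd247 was seen in 47 of 115 AD and 14 of 29 WT members. Cd5 was seen in 36 AD and 8 WT members, and Lck in 46 AD members. The T cell receptor constant genes were not used here. Of the B cell markers outside the rule, Cd79b and Pax5 gave 2 UMIs each in AD members and 0 in WT members, and Cd22 was at 0 in both libraries. Mast cell markers were at 0 in both libraries. Of 8 macrophage and monocyte markers, Ccr2, which T cells also use, gave 38 of 39 AD UMIs and all 27 WT UMIs. Natural killer markers gave 4 UMIs in 3 AD members and 14 UMIs in 1 WT member. Cytotoxic markers outside the rule gave 56 UMIs in 20 AD members and 96 UMIs in 7 WT members, nearly all of them Ccl5 and Nkg7. Markers of innate lymphoid cells, several of which helper T cells share, gave 311 UMIs in 70 AD members and 115 UMIs in 20 WT members.

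Transcripts typical of antibody-secreting and goblet cells were found in most or all AD members. Igha, the immunoglobulin A heavy chain, had 935 UMIs in all 115 AD members and 19 UMIs in 13 of 29 WT members. Jchain, which joins secreted antibodies, had 207 UMIs in 92 AD members and 0 in WT members, while the plasma cell protein gene Mzb1 had 3 UMIs in AD and 0 in WT members. Goblet cell mucin Muc2 had 127 UMIs in 74 AD members and 9 UMIs in 8 WT members. Their part in the results below was not tested.

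Cd4, the coreceptor gene of helper cells, was seen in a minority of members. It was found in 26.1% of AD members (30 of 115, 18.3 to 35.1) and 17.2% of WT members (5 of 29, 5.85 to 35.8). Foxp3 was found in 18.3% of AD (21 cells, 11.7 to 26.5) and 17.2% of WT members (5 cells, 5.85 to 35.8). Ctla4 was found in 81 AD members (70.4%) and 18 WT members (62.1%), and Icos in 83 (72.2%) and 26 (89.7%). Tnfrsf4 was found in 34 AD (29.6%) and 5 WT members (17.2%). Since these genes chose the members, their shares describe the choice. They show that 69 AD members (60.0%) and 22 WT members (75.9%) held neither Cd4 nor Foxp3, and that 22 AD and 10 WT members entered through Icos alone. Whether members with neither gene are helper T cells or other lymphocytes with a Cd3 UMI was not tested, and shares of members are shares of the cells the rule found.

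The helper genes also turned up outside T cells, to unequal degrees. Plasma-type cells had at least 3 Mzb1 UMIs, at least 3 Jchain UMIs and no Cd3 UMI. They held Ctla4 in 55.4% (423 of 764) of AD and 51.3% (20 of 39) of WT cells, at median depths of 8291 and 9560 UMIs. They held Icos in 0.785% and 5.13%, Foxp3 in 0.262% and 0%, and Tnfrsf4 in 0% and 0% of AD and WT cells. In epithelial-type cells, which should lack all 5 genes, Ctla4 was seen in 2.16% (3 of 139) of AD and 2.13% (1 of 47) of WT cells, at median depths of 6430 and 9683 UMIs, and Foxp3 in none. Macrophage-type cells held Cd4 in 14.8% (20 of 135) of AD and 9.68% (3 of 31) of WT cells.

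**Figure D1:**
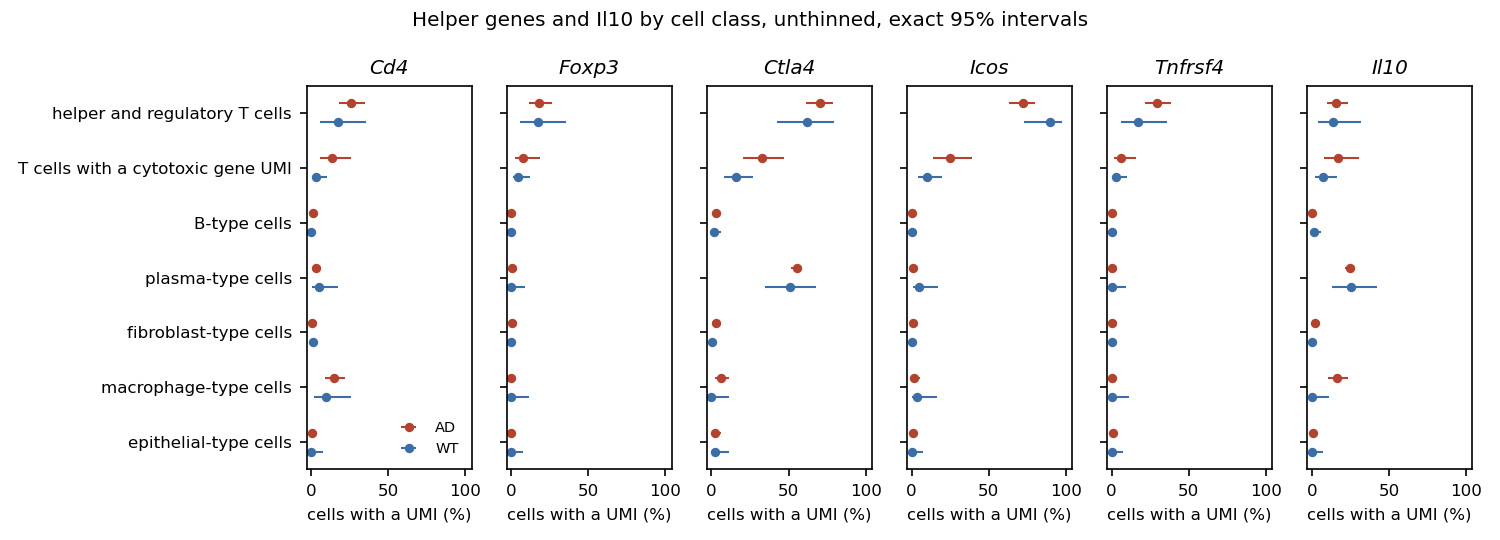
Share of cells with a UMI (x axis, percent, exact 95% intervals) of the 5 helper genes and Il10 in members and 6 other cell classes, AD in red and WT in blue. Cells were not thinned, and the classes differ in depth. Outside T cells Foxp3 and Tnfrsf4 stand below 1% and Icos at or below 5.13%, while Ctla4 reaches 55.4% of AD and 51.3% of WT plasma-type cells and Cd4 reaches 14.8% of AD macrophage-type cells.

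Members made up 2.45% of kept cells in AD (2.03 to 2.94) and 1.87% in WT (1.26 to 2.68), a ratio of 1.31 (0.866 to 2.04) whose interval includes 1. Among cells with a Cd3 UMI they made up 30.8% in AD (115 of 373, 26.2 to 35.8) and 13.7% in WT (29 of 212, 9.36 to 19.1), a ratio of 2.25 (1.49 to 3.51). Beside them, 52 AD and 69 WT cells with a Cd3 UMI were set aside for a cytotoxic gene UMI, and 103 AD and 89 WT T cells that met every exclusion held no helper gene UMI. The ratio among kept cells depended on the mitochondrial limit, and without it was 2.36 (1.57 to 3.65), with 116 AD and 30 WT members. In sum over members, Tnfrsf4 had 294 CPM (UMIs of the gene scaled by all UMIs of those cells, in counts per mega-UMI) in AD (237 to 362) and 76.4 CPM in WT (33.0 to 150), and Ctla4 had 1047 CPM in AD (935 to 1168) and 678 CPM in WT (529 to 855). Icos had 991 and 1002 CPM and Foxp3 105 and 105 CPM in AD and WT members. Since the rule took members by the sum of these genes, their levels describe the choice and give no result between genotypes.

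Foxp3 UMIs were few in each cell, with 1 to 3 UMIs in each of the 21 AD cells and 1 to 3 in each of the 5 WT cells. After thinning to 1000 UMIs Foxp3 was seen in 15 of 112 AD members (13.4%, 7.69 to 21.1) and 2 of 29 WT members (6.90%, 0.846 to 22.8), a ratio of 1.94 (0.452 to 17.5). Over 20 thinning draws that ratio ran between 0.518 and 1.94 with a median of 0.852. Foxp3 is a gene of the rule, so its share is a description, and no difference in it was detectable at this depth.

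The cells with a Foxp3 UMI carried more of several, but not all, other genes of the colonic regulatory programme that played no part in the rule. These genes come from the same cells, so the contrast is a description, and a member without a Foxp3 UMI may still express the gene. Il1rl1, the interleukin 33 receptor, had 515 CPM in the 26 members with Foxp3 and 88.6 CPM in the 118 without, a log2 ratio of 2.53 (1.80 to 3.28). It was seen in 12 of 21 AD cells with Foxp3 and 12 of 94 without, and in 1 of 5 WT cells with Foxp3 and 2 of 24 without. Ikzf2, which encodes the Treg-associated factor Helios, had 1224 CPM with Foxp3 and 340 CPM without, a log2 ratio of 1.85 (1.43 to 2.26). T cells without a helper gene UMI had 1056 CPM of Ikzf2 in AD and 1181 CPM in WT, so its level was not particular to cells with Foxp3. Klrg1, an inhibitory receptor of effector regulatory cells, stood at 320 CPM with and 106 CPM without (1.60, 0.77 to 2.38). Itgae, the integrin chain that binds epithelial E-cadherin, stood at 125 CPM with and 41.3 CPM without (1.63, 0.21 to 2.91). Areg, an epidermal growth factor family ligand tied to repair, had 1015 CPM with and 540 CPM without (0.92, 0.498 to 1.31). Other genes of the list did not stand higher. Il2ra had 209 CPM with and 242 CPM without (−0.18, −1.12 to 0.59). Tgfb1 had 153 and 219 CPM (−0.46, −1.58 to 0.41), and Il10 had 751 and 833 CPM (−0.14, −0.60 to 0.28).

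The direction was the same in both libraries for Il1rl1, Ikzf2 and Klrg1, but not for Areg. Areg had 1262 CPM with and 478 CPM without Foxp3 in AD, against 233 CPM with and 720 CPM without in WT, where 1 cell gave 80.6% of its UMIs. The WT side of each contrast rests on 5 cells with Foxp3. All 11 Il1rl1 and all 15 Ikzf2 UMIs among them came from the same cell, the deepest WT member at 8454 UMIs. Klrg1 had 3 UMIs in 2 of the 5 cells. Of the 22 listed regulatory T genes outside the rule, 12 had the 20 UMIs needed for a ratio. Of these, 8 were at least 1.5-fold higher with Foxp3 and 0 were 1.5-fold lower, with a median log2 ratio of 0.78, where 17.4% of all 3158 genes were higher and 22.2% lower, with a median of −0.03. Beside Il1rl1, the genes with the highest ratios included Hdac9 (2.74), the survival gene Bcl2l1 (2.61), the tetraspanin Cd81 (2.34) and the muscle protein gene Neb (2.30), each with 22 to 46 UMIs.

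Type 17 cytokine genes were at 0 in the cells with Foxp3. Il17a had 0 UMIs in members with a Foxp3 UMI and 222 UMIs in members without one, 192 in 15 AD cells and 30 in 5 WT cells. Against a floor of 3 counts over the cells with Foxp3, Il17a was at least 15.7-fold lower with Foxp3, a bound that counts UMIs as independent. Foxp3 was seen in 0 of the 20 members with Il17a, which allows a share of up to 15.0%. Il22, the cytokine that acts on epithelial defence, had 0 UMIs with and 38 without Foxp3. Those came from 8 AD cells and 1 WT cell, too few to draw a minimum fold. Zbtb16, which encodes PLZF and marks innate-like T cells, had 0 UMIs with and 120 without Foxp3, in 19 AD and 6 WT cells. By UMIs it was at least 8.49-fold lower with Foxp3. Pde3b and Emp1 also had 0 UMIs with Foxp3, against 79 and 52 UMIs without it. Il7r, the interleukin 7 receptor that regulatory cells carry at a low level, had 320 CPM with and 676 CPM without Foxp3, a log2 ratio of −1.05 (−1.77 to −0.46).

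**Figure D2:**
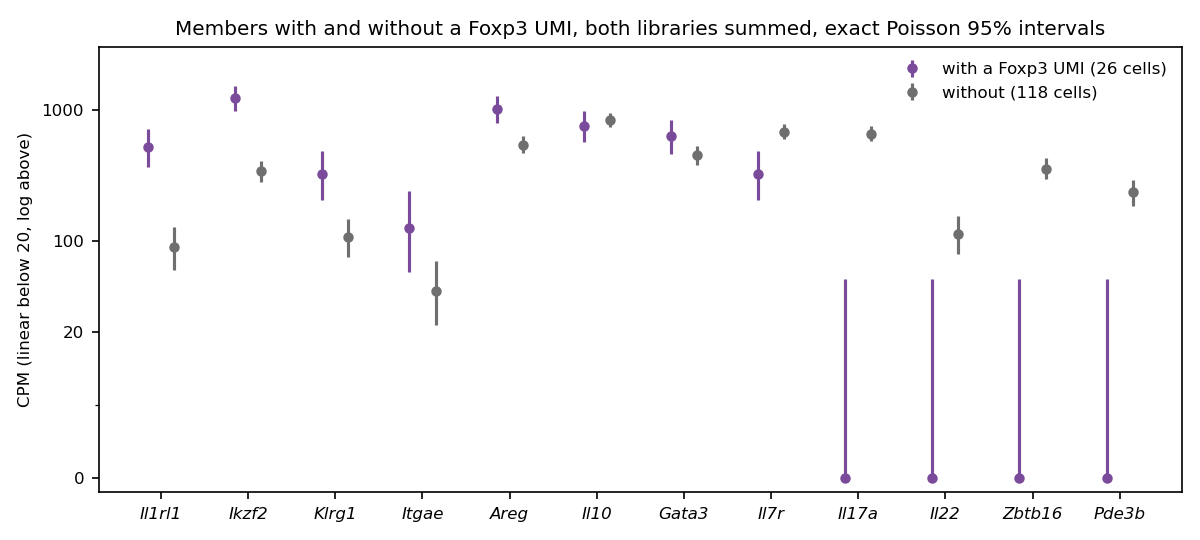
CPM (y axis, linear below 20 and logarithmic above, exact Poisson 95% intervals) of 12 genes in the 26 members with a Foxp3 UMI (purple) and the 118 without (grey), both libraries summed. Il1rl1, Ikzf2 and Klrg1 stand higher with Foxp3, and Il17a, Il22, Zbtb16 and Pde3b stand at 0 with it.

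A gene of the type 17 subset, such as Il17a, Il17f, Il22 and Il23r, was found in 38 AD members (33.0%, 24.6 to 42.4) and 13 WT members (44.8%, 26.4 to 64.3). Thinned to 1000 UMIs the shares were 22.3% in AD (25 of 112, 15.0 to 31.2) and 24.1% in WT (7 of 29, 10.3 to 43.5), a ratio of 0.925 (0.389 to 2.53). Only 1 of the 38 AD cells and 2 of the 13 WT cells also held Foxp3, in each case through Il23r and not through a cytokine gene. Rora, a nuclear receptor that promotes the type 17 programme, had 747 UMIs in 103 AD members and 183 UMIs in 26 WT members, 2443 CPM and 1747 CPM, a log2 ratio of 0.48 (0.25 to 0.73).

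Il17a was concentrated in few cells. The 15 AD cells held between 1 and 56 UMIs, with 109 of 192 UMIs in the top 2 cells, and the 5 WT cells held 20, 4, 4, 1 and 1 UMIs. In sum Il17a had 628 CPM in AD (542 to 723) and 286 CPM in WT (193 to 409), a log2 ratio of 1.11 (0.57 to 1.74), but the share of cells was 13.0% in AD and 17.2% in WT. Il23r, the receptor that maintains type 17 cells, ran the other way, with 173 CPM in AD and 277 CPM in WT (−0.69, −1.36 to 0.03). Il22 had 36 UMIs in 8 AD members and 2 UMIs in 1 WT member (log2 ratio 2.32, 0.67 to 5.72), and 1 AD cell held 44.4% of the AD UMIs. Il17f had 18 UMIs in 5 AD members (4.35%) and 0 in WT, where 0 of 29 allows a share of up to 10.3%. The chemokine gene Ccl20, whose receptor type 17 cells carry, had 47 UMIs in AD, all in 2 cells, and 0 in WT. With so few cells no minimum fold was drawn for Il17f or Ccl20. The type 17 cytokine UMIs thus came from few cells in both libraries.

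Type 1 genes were found in a minority of members. Tbx21 or Ifng was found in 11 AD (9.57%, 4.87 to 16.5) and 9 WT members (31.0%, 15.3 to 50.8), a ratio of 0.308 (0.116 to 0.841) on the counts as deposited. After thinning they were found in 7 of 112 AD and 2 of 29 WT members, a ratio of 0.906 (0.173 to 8.94). Over the 20 draws the ratio ran between 0.0647 and 1.04 with a median of 0.388, so the type 1 share was not settled at this depth. Per cell Tbx21 reached 5 UMIs in AD and 2 in WT, and Ifng 3 UMIs in AD and 6 in WT.

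Gata3 was the usual type 2 gene, and the type 2 cytokines were rare. Gata3 was found in 61 AD and 15 WT members, with 491 CPM in AD and 449 CPM in WT, a log2 ratio of 0.12 (−0.35 to 0.63). It was present in 17 of the 21 AD and 4 of the 5 WT cells with Foxp3. Il4 had 4 UMIs in 2 AD members and 21 UMIs in a single WT cell, which also held 26 of the 47 WT Gata3 UMIs and 54 of the 67 WT Areg UMIs. Il5 had 7 UMIs in 4 AD members and 0 in 29 WT members, which allows a share of up to 10.3%. Ccr4, a chemokine receptor of type 2 and regulatory cells, had 75.2 CPM in AD and 57.3 CPM in WT.

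**Figure D3:**
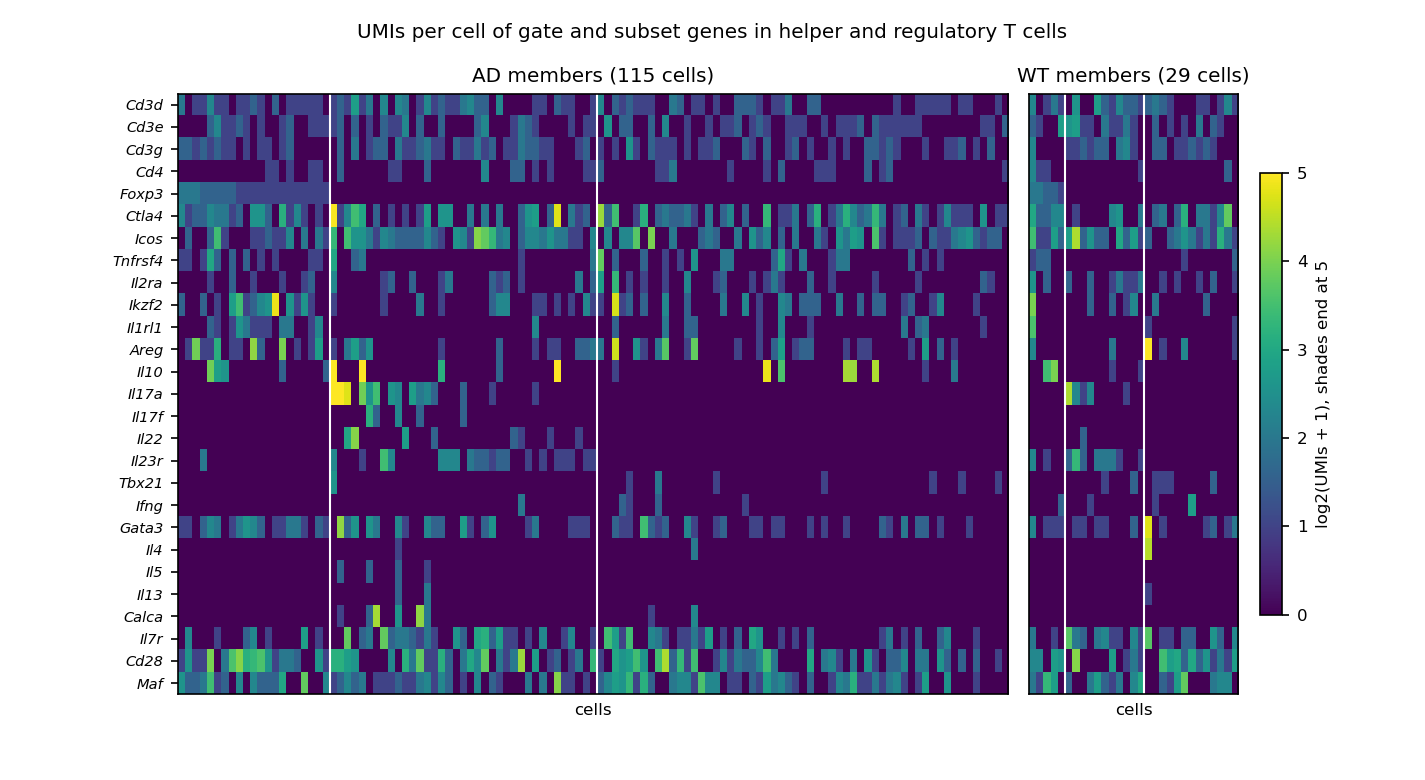
UMIs per cell, as log2(UMIs + 1), of 27 rule and subset genes (rows) in the 115 AD members (left) and 29 WT members (right), 1 column per cell. White lines part the cells with Foxp3, then those with a type 17 gene, then the rest. Il17a is dark throughout the Foxp3 cells, and bright Il10 and Calca signals sit in few cells.

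A set of 8 AD members held Calca, which encodes calcitonin gene-related peptide. They carried 1, 1, 2, 3, 4, 5, 17 and 19 Calca UMIs, and no WT member carried one, where 0 of 29 allows a share of up to 10.3%. The share of AD members with Calca, 6.96%, lies below that 10.3%, so no minimum fold was drawn. T cells without a helper gene UMI held no Calca UMI in either library. The 8 cells, singled out after their values were seen, included 7 with Gata3, 6 with Il17a, 4 with Il17f and 4 with Il5, and none with Foxp3, Il10, Il22 or Il23r. They held 79 of the 192 AD Il17a UMIs, 16 of the 18 Il17f UMIs, all 7 Il5 UMIs and 84 of the 92 UMIs of Pde7b, a phosphodiesterase of cyclic AMP. Cd3d was seen in 7 of them, Cd3g in 7 and the pan T gene Cd5 in 1. Their helper genes were Icos in 6, Ctla4 in 5, Cd4 in 3 and Tnfrsf4 in 1 of the cells. Calca, Gata3 and Il5 are also genes of innate type 2 lymphocytes, and whether these 8 cells are helper T cells was not tested.

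Il10, the anti-inflammatory cytokine of regulatory and type 1 regulatory cells, was seen in 18 AD (15.7%, 9.55 to 23.6) and 4 WT members (13.8%, 3.89 to 31.7), and thinned in 16 of 112 and 3 of 29 (ratio 1.38, 0.395 to 7.40). AD cells held between 1 and 86 UMIs, with a single cell giving 27.8% of them, and WT cells held 15, 10, 1 and 1. Summed over members this gave 1011 CPM in AD (901 to 1130) and 258 CPM in WT (170 to 375), a log2 ratio of 1.95 (1.40 to 2.60). Among members with a Cd4 UMI the ratio was −0.59 and among those with Cd4 or Foxp3 it was −1.18, with 5 and 7 WT cells in all, so its direction depended on which members were taken.

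Most Il10 UMIs in AD members stood in cells without Foxp3. Only 5 of the 18 AD cells held Foxp3, with 29 of the 309 UMIs, against 2 of the 4 WT cells, with 25 of the 27 UMIs. Of the 18 AD cells 17 held Ctla4 and 17 held Maf, a factor that drives Il10, while none held Zbtb16, Calca, Il22 or Cd40lg. The 2 AD cells that held both Il10 and Il17a had 129 Il10 and 70 Il17a UMIs together. Il10 was not particular to members. T cells with a cytotoxic gene UMI held it in 17.3% of AD (9 of 52, 534 CPM) and 7.25% of WT cells (5 of 69, 378 CPM). Plasma-type cells, at median depths of 8291 UMIs in AD and 9560 in WT, held Il10 in 24.9% of AD and 25.6% of WT cells. In sum they had 72.8 CPM of Il10 in AD and 170 CPM in WT, against 1011 and 258 CPM in members. After thinning, Il10 was seen in 6.48% of AD and 10.5% of WT plasma-type cells, against 14.3% and 10.3% of members. Of the plasma cell list AD members held Igha and Jchain widely but Mzb1 in 3 cells. The part of plasma cell transcripts in the Il10 values was not tested.

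**Figure D4:**
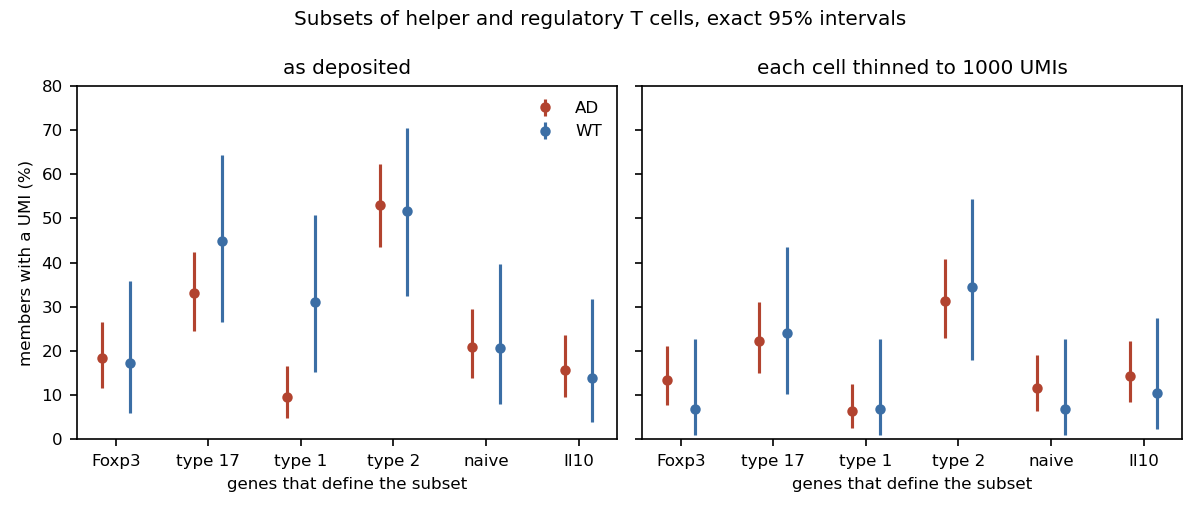
Share of members (y axis, percent, exact 95% intervals) with a UMI of each subset's genes, as deposited (left panel) and thinned to 1000 UMIs (right panel), AD in red left of WT in blue. The AD and WT intervals overlap for every subset shown, though the as-deposited type 1 ratio of 0.308 had an interval of 0.116 to 0.841. Type 1 genes, at 9.57% in AD and 31.0% in WT as deposited, stand at 6.25% in AD and 6.90% in WT thinned. The right panel is 1 thinning draw, with AD over WT ratios of 0.906 for type 1 and 1.94 for Foxp3. Over 20 draws the medians were 0.388 and 0.852.

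Set against T cells that passed the same exclusions but held no helper gene UMI, members carried more of the regulatory, type 17 and costimulatory genes in both libraries. These 103 AD and 89 WT cells had median depths of 2078 and 2781 UMIs, below those of the members. Genes at least 1.5-fold higher in members were 21.4% of 3996 genes in AD and 22.6% of 2884 in WT, and genes lower were 18.1% and 21%. Of the 12 regulatory T genes, 9 were higher and 1 lower in AD, and 9 higher and 3 lower in WT, with median log2 ratios of 2.10 and 2.71. Of the 9 type 17 genes, 7 were higher and 1 lower in AD, and 8 higher and 0 lower in WT, with medians of 2.00 and 2.12, and of the 10 costimulatory and inhibitory receptor genes 8 in AD and 7 in WT were higher and 0 lower, with medians of 1.73 and 2.06. Type 1 genes were split, with 3 of 8 higher and 3 of 8 lower in each library. Naive and recirculating genes had medians of −0.05 in AD and −0.13 in WT, with 1 and 2 of 6 genes higher.

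Single genes show what set the members apart from these T cells. Maf had 860 CPM in AD members and 204 CPM in AD T cells without helper genes, and 764 CPM and 98.7 CPM in WT. Cd28, the main costimulatory receptor, had 1334 CPM in members and 358 CPM in the others in AD, and 916 CPM and 209 CPM in WT. The CD40 ligand gene Cd40lg, through which helper cells act on B cells, had 157 CPM and 12.5 CPM in AD, and 124 CPM and 30.4 CPM in WT. Penk, the enkephalin precursor, had 61 UMIs in 10 AD members and 6 UMIs in 3 WT members, against 1 UMI in the other T cells of each library.

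Other listed genes stood lower in members than in T cells without helper genes in one or both libraries. Ikzf2 had 569 CPM in AD members and 1056 CPM in the other AD T cells, and 277 CPM and 1181 CPM in WT. The chemokine Ccl5, made by cytotoxic cells, had 81.8 CPM in AD members and 2698 CPM in the others, and 687 CPM and 2852 CPM in WT. Itgae was close in AD, at 68.7 CPM in members and 66.5 CPM in the others, and had 19.1 CPM in WT members from 2 UMIs against 163 CPM in the other WT T cells.

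Between genotypes, 3158 genes had at least 20 UMIs over the members of both libraries. Of these, 629 (19.9%) were at least 1.5-fold higher in AD members and 563 (17.8%) at least 1.5-fold lower, with a median log2 ratio of −0.00. Such calls carry no replicate check, and a gene with 20 UMIs in all can pass the fold through counting error. Of the 14 gene lists, 5 of the 12 regulatory T genes were higher in AD and 0 lower, with a median log2 ratio of 0.32. They were Il10, Itgae (1.56, −0.19 to 4.98), Ikzf2 (1.02, 0.47 to 1.66), Tgfb1 (0.88, 0.06 to 1.90) and Klrg1 (0.86, −0.11 to 2.14). The same list had a median of 0.64 in T cells without helper genes and 0.18 in all other kept cells. Maf at 0.17 (−0.19 to 0.55), Il2ra at −0.11 (−0.76 to 0.61) and Areg at −0.06 (−0.46 to 0.37) did not reach the fold. Areg was seen in 48 AD and 6 WT members, and the 1 WT cell with 80.6% of its WT UMIs sets that ratio. With a Cd4 UMI required Ikzf2 turned to −0.45.

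The follicular helper list stood furthest from 0. Of its 5 genes with enough UMIs, 4 were higher in AD and 0 lower, with a median log2 ratio of 2.64, where the same genes had 1.42 in T cells without helper genes and −0.01 in all other kept cells. Tox, a nuclear factor of activated and follicular T cells, had 868 UMIs in 82 AD members and 93 UMIs in 21 WT members, 2839 CPM and 888 CPM, a log2 ratio of 1.67 (1.37 to 2.00). In T cells without helper genes Tox had 686 CPM in AD and 653 CPM in WT. Tox2 had 45 UMIs in AD and 2 in WT (2.64, 1.01 to 6.04), the inhibitory receptor Btla 47 and 1 (3.44, 1.46 to 9.34) and the follicular regulator Bcl6 27 and 1 (2.65, 0.61 to 8.56). Pdcd1, which encodes PD-1, had 78.5 CPM in AD and 76.4 CPM in WT. The other list genes, such as Cxcr5 and Il21, had too few UMIs for a ratio. Of the 19 AD members with Btla, chosen after their values were seen, 15 held Tox, 7 Bcl6, 8 Cd40lg and 0 Foxp3, and the 1 WT member with Btla held 3 Foxp3 UMIs.

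Other surface receptors were also unequal. Cd44, the adhesion receptor of antigen-experienced T cells, had 1367 CPM in AD (1239 to 1505) and 554 CPM in WT (420 to 716), a log2 ratio of 1.29 (0.91 to 1.73), seen in 92 AD and 17 WT members. In T cells without helper genes Cd44 had 457 CPM in AD and 205 CPM in WT, so it was higher there in AD too. Slamf1, an adhesion receptor, had 258 CPM in AD and 85.9 CPM in WT (1.52, 0.59 to 2.77). Of the 10 costimulatory and inhibitory receptor genes 3 were higher and 1 lower in AD. The lower one was Havcr2, which encodes TIM-3, with 14 UMIs in AD and 13 in WT (−1.44, −2.64 to −0.23). Il1r2, the decoy receptor for interleukin 1, had 34 UMIs in 14 AD members and 0 in WT, at least 3.88-fold higher in AD. Tgfbr2, a receptor chain for TGF-β, had 275 CPM in AD and 115 CPM in WT (1.21, 0.38 to 2.27), and Il2rb, a chain of the interleukin 2 receptor, had 389 CPM in AD and 831 CPM in WT (−1.10, −1.50 to −0.68). Tgfbr2 turned to −0.10 with a Cd4 UMI required. The 17 cytokine receptor and STAT genes had 4 higher and 1 lower, with a median of −0.09.

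Genes of migration differed in both directions. Klf2, which sustains recirculation, had 536 CPM in AD and 220 CPM in WT (1.26, 0.65 to 1.99), and Tcf7, a factor of naive and memory cells, had 203 CPM and 105 CPM (0.90, 0.01 to 2.02). Foxp1, another quiescence factor, ran the other way at 579 CPM in AD and 993 CPM in WT (−0.78, −1.14 to −0.41). With a Cd4 UMI required Foxp1 stood at 0.054. Of the 6 naive and recirculating genes 3 were higher and 1 lower, with a median of 0.35. Of the 11 genes of tissue residence and gut homing 1 was higher and 3 lower. The lower ones were S100a4 (−1.33, −1.67 to −0.98), S100a6 (−1.09, −1.39 to −0.78) and the galectin gene Lgals1 (−0.94, −1.33 to −0.54), and S100a4 had 513 CPM in AD and 1289 CPM in WT members. In T cells without helper genes S100a4 stood at 274 CPM in AD and 171 CPM in WT, the opposite order. The residence receptor Cd69 had 801 CPM in AD and 859 CPM in WT. Ccr2, a receptor for inflammatory chemokines, had 124 CPM in AD and 258 CPM in WT (−1.06, −1.80 to −0.28).

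Of the 9 type 17 genes 3 were higher and 4 lower, with a median of 0.41. The lower ones were Il23r, Il1r1 (−0.65, −1.29 to 0.04), Tmem176a (−0.94, −1.52 to −0.34) and Tmem176b (−1.70). Tmem176a and Tmem176b encode related membrane proteins, and Tmem176b had 34 UMIs in 22 AD members and 38 UMIs in 12 WT members. Of the 8 type 1 genes 1 was higher, Hopx (1.36, 0.37 to 2.70), which stood at −0.27 with a Cd4 UMI required, and 3 were lower. Ccl5 had 25 UMIs in 8 AD and 72 UMIs in 3 WT members (−3.05, −3.79 to −2.40), with 60% and 61.1% of them in 1 cell, and Nkg7 had 28 UMIs in AD and 24 in WT (−1.33, −2.16 to −0.47). The third lower gene was Tbx21 (−0.78, −2.09 to 0.72). The 4 type 2 genes had 0 higher and 1 lower, Il4, with its single WT cell (−3.80, −5.94 to −2.37).

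T cell receptor signalling genes differed little. Of 16 genes, 2 were higher and 1 lower in AD, with a median of 0.12. The higher ones were Lck and Cd6, whose intervals include 0, and the lower one was Themis (−0.75, −1.44 to −0.01), which turned to 2.99 with a Cd4 UMI required. Cd247 had 255 CPM in AD and 267 CPM in WT, Thy1 520 and 468 CPM and Bcl11b, the T lineage factor, 451 and 420 CPM. Nr4a1, which follows receptor signalling and also cell dissociation, had 2659 CPM in AD and 1375 CPM in WT (0.95, 0.69 to 1.22), and Jund had 1066 and 592 CPM (0.84, 0.45 to 1.26). Fos ran the other way, at 2145 CPM in AD and 3265 CPM in WT (−0.61, −0.80 to −0.41). With a Cd4 UMI required Fos stood at 0.47, and Zfp36 and Btg2, the other lower genes of its list, at 0.15 and 0.66. Of the 22 immediate early and dissociation genes 2 were higher and 3 lower, with a median of 0.22. The 6 interferon-stimulated genes had 2 higher and 2 lower (median −0.20), the 6 cell division genes 1 higher and 0 lower (0.29), and the 3 chemokine receptor genes 0 higher and 1 lower (0.31). Dividing cells were few, and Mki67 was seen in 8 AD members and 1 WT member.

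**Figure D5:**
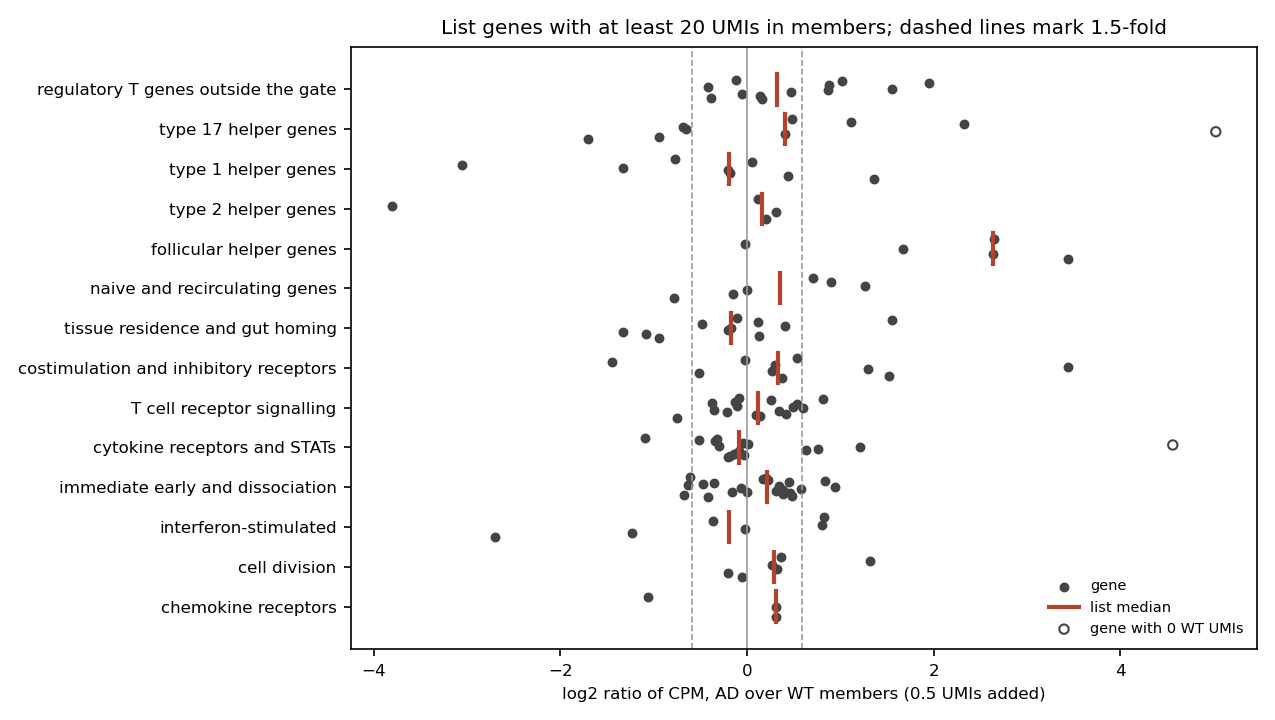
Log2 ratio of CPM, AD over WT members (x axis, 0.5 UMIs added), of each list gene with at least 20 UMIs (points), by list, with the list median as a red bar and dashed lines at 1.5-fold. The follicular helper list has its median at 2.64, and the other 13 medians lie between −0.20 and 0.41. Open circles are genes with 0 WT UMIs, whose position depends on the added count.

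The genes with the most extreme ratios rested on small counts in one library. Among genes found in at least 5 members, a minimum that leaves out Ccl20 and Il4, the 8 with the highest ratios were taken. Of these, Pde7b had 1 WT UMI (4.40, 2.46 to 10.3) and the others had none. Beside Calca and Il1r2 these were Mkrn2 (39 AD UMIs in 12 cells), Iffo2 (37 in 17), the DNA ligase gene Lig1 (28 in 10), Stxbp4 (26 in 13) and Nudt4 (23 in 15). Their lower bounds, which count UMIs as independent, ran between 2.63-fold for Nudt4 and 4.45-fold for Mkrn2, and a single cell held 53.6% of the Lig1 UMIs. In all other kept cells the log2 ratios were −0.50 for Mkrn2, 0.35 for Iffo2, −0.95 for Lig1, 0.16 for Stxbp4 and −0.07 for Nudt4. The lowest under the same minimum were Tle1, Cxcl2, Gramd3, Ifi206, Sema4a, Abi3bp, Kpnb1 and Klrk1, with log2 ratios between −3.42 and −2.02. Cxcl2, a neutrophil chemoattractant, had 32 UMIs in 11 AD and 113 UMIs in 4 WT members, and 1 cell in each library held 43.8% and 48.7% of them. The interferon-inducible Ifi206 had 6 UMIs in 6 AD and 14 UMIs in 7 WT members (−2.70, −4.43 to −1.30), and the natural killer receptor gene Klrk1 had 15 UMIs in 8 and 21 UMIs in 6 members (−2.02, −3.09 to −1.01).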

How the data were processed

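Each library's matrix holds whole UMI counts, as the authors deposited them. The submitters' processing notes name mm10, STAR, Cell Ranger (3.0.1) and Seurat (3.0.2). The lowest barcode held 500 UMIs. Cells were kept and members chosen as in the report. UMIs were summed over members per library as CPM, and 0.5 counts were added for log2 ratios. Genes needed 20 UMIs in sum, and ranked genes at least 5 members. A gene at 0 in 1 library was set against a floor of 3 counts over its group. Such bounds count UMIs as independent, so they are too firm where few cells hold the UMIs. No doublet caller was run, and the exclusions remove only mixed cells with the rule's cytotoxic, B cell, macrophage or epithelial genes. Named were the rule's genes, the 8 highest and 8 lowest ratios between libraries, those most unlike other cells, those most above or below other T cells, the most abundant and most extreme of each list, and those highest and lowest with Foxp3, and further list genes chosen with their values known. Ribosomal, mitochondrial, immunoglobulin, T cell receptor variable, haemoglobin, sex-linked and other-class marker genes were left out of ranks. Members and lists were chosen with earlier results of these data known. Of 221 list entries 3 were unmatched and 9 were at 0 in every barcode. Ratios were checked on simulated counts. Scripts ran in Python 3.11.15 with scipy 1.17.1, numpy 2.4.6, matplotlib 3.10.9 and pandas 2.3.3. No gene positions are given. Some genes are not reported here.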

Additional observations from a re-analysis of the deposited data

How the results depend on the processing

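The ratio of the member share between AD and WT stood above 1 under each alternative run, at 1.31 among kept cells, and moved most to 2.25 with Cd3 cells as the denominator, 2.36 with no mitochondrial limit and 2.17 when only members with a Cd4 or Foxp3 UMI counted, a choice made after seeing the data. Without that limit 1 member more was found in each library, so its value moved through the kept cells. The thinned Foxp3 ratio was 0.172 among members with a Cd4 UMI, where the WT library had 5 cells, and the type 17 ratio stayed within its interval. Genes at least 1.5-fold higher in AD members numbered 240 with a Cd4 UMI required, 331 with Cd4 or Foxp3, 1209 at a minimum of 10 UMIs and 197 at 50 UMIs, and lower ones 215, 307, 1119 and 181, as fewer or more genes reached the minimum. Of the recomputed single-gene values, 2058 stayed within the gene's main interval, which need not keep its direction, and 126 moved outside it. Another 16 reversed, counted only for genes at least 1.5-fold different whose main interval excluded no change. With a Cd4 UMI required, log2 ratios reversed to −0.59 for Il10, −0.27 for Hopx, 0.054 for Foxp1, 2.99 for Themis, −0.10 for Tgfbr2, −0.45 for Ikzf2, 0.47 for Fos, 0.15 for Zfp36 and 0.66 for Btg2. With Cd4 or Foxp3 they reversed to −1.18 for Il10, 3.29 for Themis, −0.27 for Tgfbr2, 0.48 for Fos, 0.45 for Zfp36 and 0.62 for Btg2. Zfp36 also reversed to 0.13 at 3 or more helper UMIs. The cause was not tested, and WT had 5 and 7 members in these settings. No paired analysis was possible because each genotype had 1 library, and for the same reason no replicate could be left out. The 29 WT members leave wide intervals, and at a median of 2404 UMIs in AD and 3149 in WT members an unseen gene may still be expressed.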
